A study of Arabidopsis thaliana with 16 samples.

Results

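The levels of 10 alpha-expansin transcripts were examined in *fer* and WT Arabidopsis (*Arabidopsis thaliana*) seedlings with and without arabidopside A. The genes are *EXPA1*, *EXPA3*, *EXPA4*, *EXPA5*, *EXPA6*, *EXPA8*, *EXPA9*, *EXPA10*, *EXPA11* and *EXPA15*. They were taken by locus identifier, and all 10 were found among the 32833 genes of the count table, which holds 25 of the 26 alpha-expansins looked up. Transcripts had been counted by QuantSeq, which gives 1 read near the 3′ end of each messenger RNA, in 16 libraries. The 4 groups of 4 libraries were *fer* seedlings with arabidopside A, *fer* control seedlings, WT seedlings with arabidopside A and WT control seedlings. WT was Col-0 and *fer* was *fer-4*, a single T-DNA insertion line in that background. All seedlings were 10 days old, came from 1/2 MS plates and spent 2 h in liquid 1/2 MS before treatment, and the treated ones then received 12.5 µM arabidopside A for 2 h. The labels call the controls untreated and name no solvent. Whole seedlings were extracted, so roots and shoots were measured together, and the labels call the 4 libraries of a group biological replicates without giving the number of seedlings in each. The p-values below measure the spread among these libraries, and tests without a replicate block treat the 4 of a group as independent.

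Alpha-expansins are secreted proteins that loosen the plant cell wall. They let cellulose and the polymers bound to it slide past each other without cutting them, and they act best in an acidic wall, so the plasma membrane proton pumps that acidify the wall set the conditions for their activity. *FER* encodes FERONIA, a receptor kinase that senses the state of the wall and binds RALF peptides, and through them it restrains proton pumping and root elongation. Mutants without *FER* also show stunted vegetative growth, so its role in growth is not restraint alone. Arabidopside A is a chloroplast galactolipid that carries bound jasmonate precursors and accumulates after wounding. Different alpha-expansins are used in different organs, and *EXPA10* is known from its role in leaf and petiole growth.

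Library totals ran from 2843653 to 6860427 counts, apart from a *fer* arabidopside A library (replicate 2) with 26358335. *FER* (AT3G51550) had 0 to 14 counts in the *fer* arabidopside A libraries and 3 to 10 in the *fer* control libraries, against 356 to 715 in the WT arabidopside A libraries and 444 to 793 in the WT control libraries. Of the genes that passed edgeR's filter on low counts, 27.2% of 17001 differed between *fer* and WT control seedlings and 31.2% of 18132 between the genotypes under arabidopside A. All 10 alpha-expansins passed the filter in each comparison. The 10 green shoot markers, genes of Rubisco and the photosystems, summed to 6368 to 14006 CPM in *fer* control libraries and 18071 to 21837 CPM in WT control libraries. CPM are counts scaled to a common library size, here after TMM normalization.

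The 10 genes lie on chromosomes 1, 2, 3 and 5, have 3 or 4 exons and messenger RNAs of 1315 to 1670 bases in the RefSeq TAIR10.1 annotation, in which all 10 were matched by locus identifier. None overlaps another gene on either strand. In the longest messenger RNA of each gene, none of the 351 50-base words in the last 400 bases occurs elsewhere in the genome. A stretch of 50 bases that matches these 3′ ends exactly therefore belongs to a single gene. Alignments with mismatches to similar genes were not examined. The counts themselves were made on TAIR10.

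Promoter windows of 250 bases before and 50 bases after the annotated start were searched on both strands for 5 motifs. The auxin response element TGTCTC was in the windows of 4 of the 10 genes (*EXPA5*, *EXPA6*, *EXPA8* and *EXPA10*), against 14.2% of the 27443 windows of the genome. The brassinosteroid response element CGTGTG was in those of *EXPA1* and *EXPA6*, against 6.52% of all windows, and it overlaps a G-box that is followed by TG. The G-box CACGTG (7.68% of all windows), the second brassinosteroid form CGTGCG (1.96%) and the L1 box TAAATGTA (3.37%) were in none of the 10, which says only that these letters are absent from these windows. The sequences of *EXPA5*, *EXPA6* and *EXPA10* are shown because these 3 genes passed the test between *fer* and WT control seedlings and held TGTCTC within 200 bases before the start. They are the 200 bases before the start, on the strand of the gene, at chr3:11013452-11013651 (minus strand), chr2:12433797-12433996 (minus strand) and chr1:9259232-9259431 (plus strand) of TAIR10.1. Capitals mark TGTCTC or its reverse complement GAGACA and, in *EXPA6*, CACACG, the reverse complement of CGTGTG. A match is a description of the letters.
EXPA5: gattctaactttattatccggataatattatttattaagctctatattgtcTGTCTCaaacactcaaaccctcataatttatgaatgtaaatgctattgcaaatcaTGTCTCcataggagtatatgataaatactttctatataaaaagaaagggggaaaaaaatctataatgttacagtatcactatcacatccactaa
EXPA6: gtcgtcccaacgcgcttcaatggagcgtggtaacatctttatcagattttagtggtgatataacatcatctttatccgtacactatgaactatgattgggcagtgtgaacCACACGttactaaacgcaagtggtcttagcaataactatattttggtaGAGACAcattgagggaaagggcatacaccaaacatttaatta
EXPA10: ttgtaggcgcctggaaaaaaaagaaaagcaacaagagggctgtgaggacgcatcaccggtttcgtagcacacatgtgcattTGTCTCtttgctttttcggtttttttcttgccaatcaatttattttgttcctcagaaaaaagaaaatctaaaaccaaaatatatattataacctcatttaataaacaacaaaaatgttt
*EXPA5* held the auxin element at 2 places in this stretch, and *EXPA6* and *EXPA10* at 1 each. The motif was in the windows of genes that were lower in *fer* control seedlings (*EXPA5* and *EXPA6*) and of a gene that was higher (*EXPA10*).

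*EXPA1* was the most abundant of the 10 transcripts in every group. Since QuantSeq reads 1 fragment per transcript, CPM compare genes without division by length. In *fer* control seedlings the mean levels were 272 ± 22.7 CPM for *EXPA1*, 53.6 ± 16.04 for *EXPA15*, 45.7 ± 11.6 for *EXPA4*, 43.0 ± 9.41 for *EXPA10*, 32.5 ± 20.01 for *EXPA3*, 13.3 ± 6.09 for *EXPA6*, 12.3 ± 9.75 for *EXPA11*, 11.5 ± 5.06 for *EXPA5*, 10.4 ± 4.88 for *EXPA9* and 4.55 ± 2.85 for *EXPA8* (SD, n = 4). *EXPA1* alone was apart from its neighbour in that order, and the ranges of all other neighbours overlapped. In WT control seedlings the mean levels were 245 ± 18.7 CPM for *EXPA1*, 114 ± 3.37 for *EXPA3*, 67.2 ± 4.70 for *EXPA15*, 57.4 ± 7.11 for *EXPA11*, 38.4 ± 5.63 for *EXPA4*, 31.4 ± 0.94 for *EXPA6*, 25.9 ± 5.11 for *EXPA5*, 14.7 ± 1.31 for *EXPA9*, 13.1 ± 3.404 for *EXPA10* and 9.45 ± 1.51 for *EXPA8* (SD, n = 4). In WT control seedlings the ranges of *EXPA15* and *EXPA11*, of *EXPA4* and *EXPA6*, and of *EXPA6* and *EXPA5* overlapped. Those of *EXPA9* and *EXPA10*, and of *EXPA10* and *EXPA8*, overlapped as well. Neighbours were measured in the same libraries. In every WT control library *EXPA15* was above *EXPA11*, *EXPA4* above *EXPA6*, *EXPA6* above *EXPA5* and *EXPA10* above *EXPA8*. *EXPA9* and *EXPA10* did not keep 1 order, and no order was tested. *EXPA1* and *EXPA3* stood apart from each other and from the rest. Under arabidopside A the order in *fer* began with *EXPA1*, *EXPA10*, *EXPA15* and *EXPA4*, and that in WT with *EXPA1*, *EXPA3*, *EXPA15* and *EXPA11*. In treated WT each of these 4 was apart from the next, and in treated *fer* only *EXPA1* was. *EXPA8* was the lowest of the 10 in every group.

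**Figure D1:**
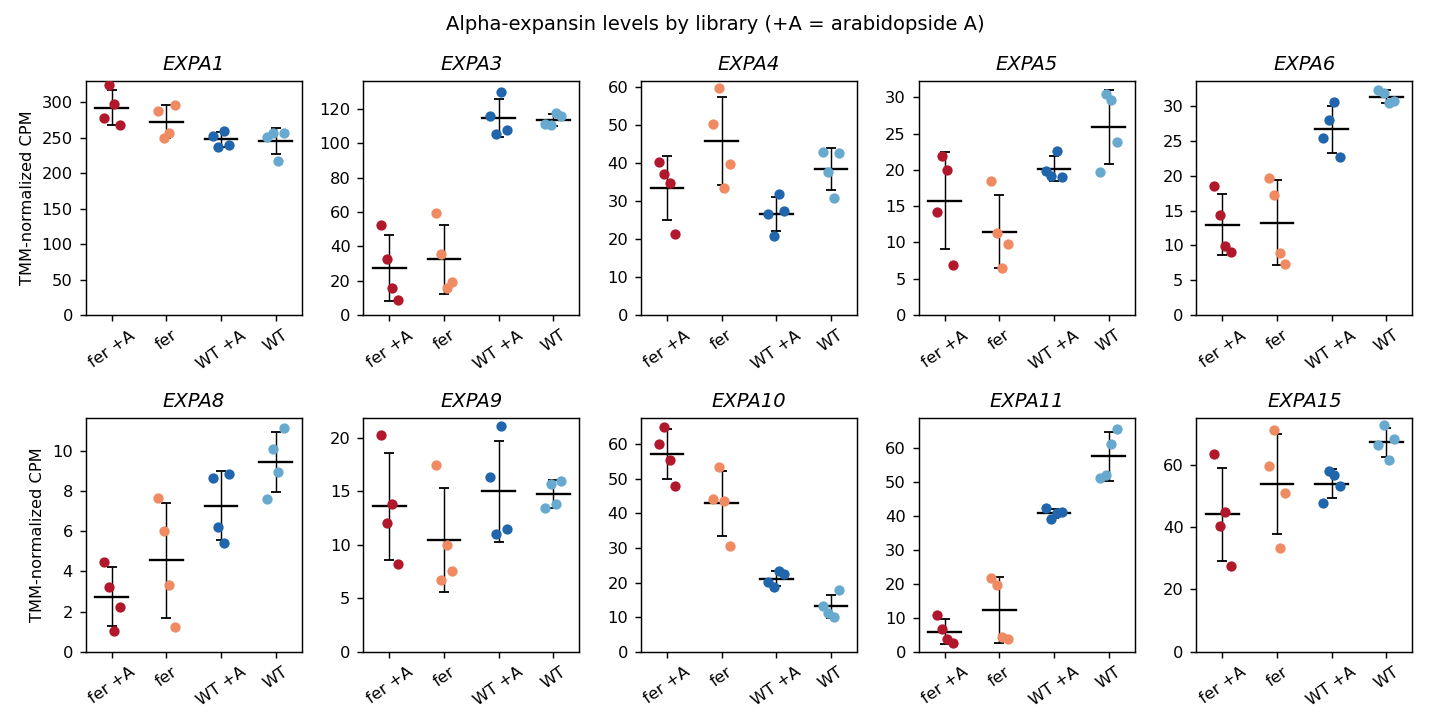
TMM-normalized CPM of the 10 alpha-expansin transcripts in each library (points), with the group mean (horizontal line) and SD (bars, n = 4), for *fer* with arabidopside A (fer +A), *fer* control (fer), WT with arabidopside A (WT +A) and WT control (WT). *EXPA3*, *EXPA6* and *EXPA11* are lower in every *fer* library than in any WT library, and *EXPA10* is higher in every *fer* library than in any WT library.

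*fer* control seedlings were compared with WT control seedlings to ask how the loss of *FER* alone changes the alpha-expansin transcripts. *EXPA3*, *EXPA5*, *EXPA6* and *EXPA11* were lower in *fer*, *EXPA10* was higher, and the other 5 did not pass the test. Of all genes tested 11.5% were lower and 15.7% higher, against 4 and 1 of the 10 alpha-expansins. The same 4 genes were lower and the same gene higher in every *fer* library than in any WT library, which held for 13.6% and 16.2% of all genes. The median log2 fold change of the 10 was -0.76, against -0.03 for all genes. The 10 genes were chosen with earlier results of these data known, so these counts and medians are a description and not support. Of 5 other alpha-expansins tested in control seedlings, 0 passed. In whole seedlings a lower level can come from fewer cells that express the gene or from less RNA per cell, and these cannot be told apart.

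*EXPA11* (AT1G20190) had the largest decrease of the 10. It had 21.8, 19.7, 4.22 and 3.65 CPM in the *fer* control libraries (replicates 1 to 4), against 51.1, 51.9, 61.1 and 65.6 CPM in the WT control libraries. Every *fer* library was below every WT library, and replicates 3 and 4 of *fer* were far below replicates 1 and 2. The log2 fold change was -2.23 (SE 0.53, 95% interval -3.45 to -1.005, edgeR adjusted p = 0.0175), a 4.69-fold lower level.

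*EXPA3* (AT2G37640), the second most abundant of the 10 in WT, had 59.6, 35.3, 15.8 and 19.1 CPM in the *fer* control libraries and 111, 110, 117 and 116 CPM in the WT control libraries. The WT libraries lay close together, and the highest *fer* library was still well below the lowest of them. Its log2 fold change was -1.81 (SE 0.37, interval -2.65 to -0.98, edgeR adjusted p = 0.00778).

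*EXPA6* (AT2G28950) had 19.6, 17.3, 8.89 and 7.29 CPM in *fer* control and 32.3, 31.9, 30.4 and 30.7 CPM in WT control libraries. The groups did not overlap, and again replicates 1 and 2 of *fer* were the higher ones. Its log2 fold change was -1.25 (SE 0.27, interval -1.83 to -0.67, edgeR adjusted p = 0.00575). *EXPA5* (AT3G29030), an expansin known from brassinosteroid-dependent growth, had 18.4, 11.3, 6.45 and 9.72 CPM in *fer* control and 19.6, 30.5, 29.6 and 23.8 CPM in WT control libraries. The highest *fer* library lay just below the lowest WT library, and both were replicate 1. Its log2 fold change was -1.17 (SE 0.28, interval -1.78 to -0.56, edgeR adjusted p = 0.0102).

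*EXPA10* (AT1G26770) went the other way. It had 44.1, 53.6, 43.6 and 30.7 CPM in *fer* control and 13.2, 11.3, 10.1 and 17.8 CPM in WT control libraries. The lowest *fer* library and the highest WT library were both replicate 4, and the groups did not overlap. The log2 fold change was 1.70 (SE 0.22, interval 1.23 to 2.17, edgeR adjusted p = 0.000304), a 3.25-fold higher level.

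Among the 5 genes that did not pass, *EXPA8* (AT2G40610) had the largest difference. It had 7.65, 5.99, 3.34 and 1.22 CPM in *fer* control, from 4 to 39 counts, and 7.62, 10.1, 8.96 and 11.2 CPM in WT control libraries. Only the replicate 1 libraries overlapped (log2 fold change -1.04, SE 0.38, edgeR adjusted p = 0.0624). *EXPA9* (AT5G02260) ran from 6.70 to 17.5 CPM in *fer* control and from 13.4 to 15.99 CPM in WT control libraries, and *EXPA1* (AT1G69530) from 250 to 296 CPM in *fer* control and from 218 to 257 CPM in WT control libraries. Both ranges overlapped. The log2 fold changes of *EXPA9* (-0.47, interval -1.06 to 0.12), *EXPA15* (-0.34, interval -0.76 to 0.08), *EXPA1* (0.14, interval -0.11 to 0.40) and *EXPA4* (0.24, interval -0.17 to 0.64) had intervals that include 0, with edgeR adjusted p from 0.218 to 0.408. The interval of *EXPA1*, the most deeply counted of the 10, leaves out changes of the size seen in the 5 genes that passed.

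Leaving out *fer* control replicate 1, the highest *fer* library for 6 of the 10 genes, brought *EXPA8* (log2 fold change -1.47, edgeR adjusted p = 0.0136, range over its alternatives 0.0045 to 0.604) and *EXPA9* (-0.85, edgeR adjusted p = 0.0119, range 0.0119 to 0.786) past the threshold. Both genes had their highest *fer* control value in that library, so its removal enlarges their decrease and these calls are not support. *EXPA3*, *EXPA6*, *EXPA10* and *EXPA11* passed in all 19 alternative settings. These settings include the splits by replicate number described below, which were added after the values were seen and are not support.

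**Figure D2:**
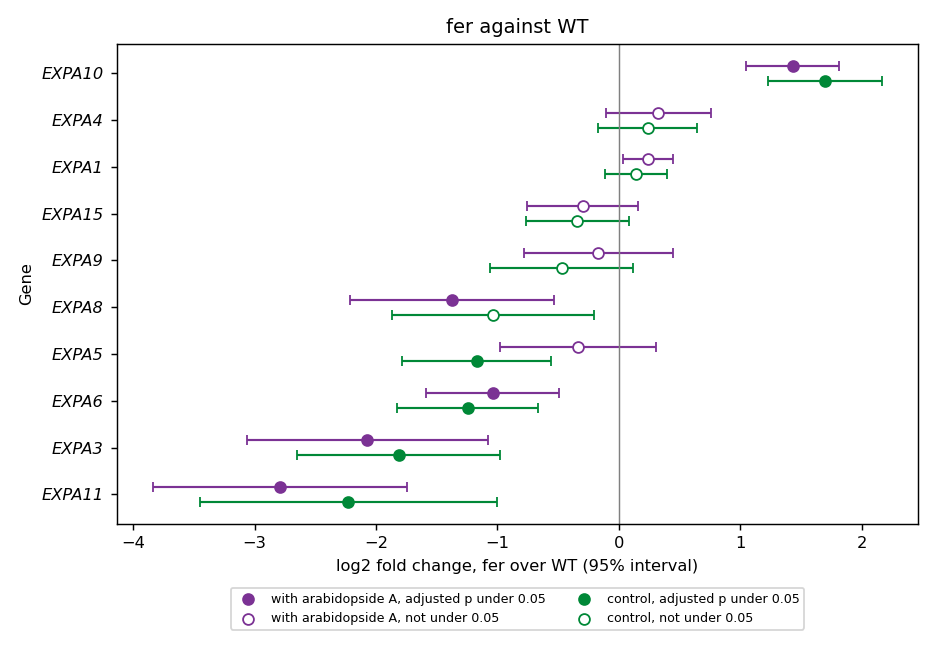
Log2 fold change of *fer* over WT with its 95% interval for each alpha-expansin, with arabidopside A (purple, upper of each pair) and in control seedlings (green, lower), filled where the edgeR adjusted p was under 0.05. *EXPA3*, *EXPA6* and *EXPA11* are filled on the negative side and *EXPA10* on the positive side in both, *EXPA5* only in control seedlings and *EXPA8* only under arabidopside A.

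The same contrast was made in seedlings given arabidopside A, from a fit of all 16 libraries. *EXPA3*, *EXPA6*, *EXPA8* and *EXPA11* were lower in *fer* and *EXPA10* was higher. That is 4 and 1 of the 10, against 14.0% and 17.2% of all genes tested. Counted by groups that do not overlap, 4 genes were lower and 2 higher, against 15.6% and 16.8% of all genes. The median log2 fold change was -0.32, against -0.01 for all genes. As in control seedlings, the way the 10 genes were chosen makes these counts and medians a description. Whether the contrast differs between treated and control seedlings is given by the test of the difference of responses.

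*EXPA11* had 10.7, 6.57, 3.68 and 2.53 CPM in *fer* and 42.3, 39.1, 40.7 and 40.9 CPM in WT libraries with arabidopside A. All *fer* libraries were far below all WT libraries (log2 fold change -2.79, SE 0.49, edgeR adjusted p = 0.00107), a 6.93-fold lower level. *EXPA3* had 52.2, 32.4, 15.9 and 8.69 CPM in *fer* and 116, 105, 130 and 108 CPM in WT libraries with arabidopside A. The groups did not overlap, and the *fer* libraries spanned a far wider relative range than the WT ones (log2 fold change -2.07, SE 0.46, edgeR adjusted p = 0.00489).

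*EXPA6* had 18.5, 14.4, 9.98 and 9.001 CPM in treated *fer* and 25.4, 28.0, 30.6 and 22.7 CPM in treated WT libraries, with no overlap (log2 fold change -1.04, SE 0.26, edgeR adjusted p = 0.00654). *EXPA8*, which missed the threshold in control seedlings, had 4.48, 3.25, 1.05 and 2.21 CPM in treated *fer* and 8.65, 6.20, 5.42 and 8.83 CPM in treated WT libraries. Here the groups were apart, and the log2 fold change was -1.38 (SE 0.40, edgeR adjusted p = 0.0152). *EXPA10* had 60.0, 64.9, 55.5 and 48.0 CPM in treated *fer* and 20.2, 18.6, 23.4 and 22.5 CPM in treated WT libraries. Every *fer* library was at more than 2 times the level of the highest WT library (log2 fold change 1.43, SE 0.18, edgeR adjusted p = 4.76e-05).

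*EXPA5*, which passed in control seedlings, did not pass under arabidopside A. It had 14.2, 21.9, 19.95 and 6.95 CPM in treated *fer* and 19.8, 19.1, 22.7 and 19.0 CPM in treated WT libraries. In *fer* 2 libraries lay within the range of the WT ones and 2 below it, with none above (log2 fold change -0.34, interval -0.98 to 0.30, edgeR adjusted p = 0.425). *EXPA1* had 278, 324, 298 and 268 CPM in treated *fer* and 253, 237, 260 and 240 CPM in treated WT libraries. The groups were apart by a small margin, and the test missed the threshold (log2 fold change 0.24, SE 0.10, edgeR adjusted p = 0.0739, range over its alternatives 0.0197 to 0.444). *EXPA4* (0.32), *EXPA9* (-0.17) and *EXPA15* (-0.30) had overlapping groups and edgeR adjusted p from 0.245 to 0.697. The 5 genes that passed also passed in every alternative in which they were tested, 26 for *EXPA8* and 27 for each of the others. Here too the alternatives include splits by replicate number that were added after the values were seen and are not support.

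The summed level of the green shoot markers also differed between the genotypes. It was 6887 to 12304 CPM in treated *fer* and 16563 to 20547 CPM in treated WT libraries. Of the 10 marker genes 6 were lower in *fer* in both comparisons, against 11.5% and 14.0% of all genes, and none was higher. The other 4 did not pass. Of 14 markers of root cells other than root hairs, 9 were tested. Of these 2 were higher in *fer* control seedlings and 4 under arabidopside A, against 15.7% and 17.2% of all genes, with none lower. Of the 6 root hair markers 4 were tested in control seedlings, where only *PRP3* passed and was lower in *fer* (log2 fold change -0.78, edgeR adjusted p = 0.0457). Under arabidopside A 5 were tested and none passed. Of all genes 27.2% passed in control seedlings and 31.2% under arabidopside A. The root markers' summed level was 132 to 177 CPM in *fer* control and 110 to 157 CPM in WT control libraries. Each of the 10 green and 14 root markers had counts, so the material held both organs, and their part in the alpha-expansin differences was not tested.

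Replicate number divided the *fer* libraries. In *fer* control, replicates 1 and 2 were both above replicates 3 and 4 for 8 of the 10 genes (*EXPA3*, *EXPA4*, *EXPA5*, *EXPA6*, *EXPA8*, *EXPA10*, *EXPA11* and *EXPA15*), an ordering seen in 28.2% of 18132 genes. In *fer* with arabidopside A this held for 6 (*EXPA3*, *EXPA4*, *EXPA6*, *EXPA8*, *EXPA10* and *EXPA11*), against 28% of genes. In WT it held for 0 of the 10 with arabidopside A and for 1 (*EXPA6*) in control libraries, against 15.2% and 16.8% of genes. The reverse order held for 0 of the 10 in *fer*, against 25.9% of genes in control and 27.1% with arabidopside A. In WT the reverse held for 2 with arabidopside A (*EXPA4* and *EXPA10*) and 2 in control (*EXPA3* and *EXPA11*), against 15.7% and 16.3% of genes. What the numbers stand for is not in the labels. The green marker sum was also higher in replicates 1 and 2 of *fer* control, with 14006 and 10074 CPM, against 6368 and 9015 CPM in replicates 3 and 4. This ordering was noticed in the data and has no test.

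Since the 4 lowered genes were higher in replicates 1 and 2 of *fer*, the comparison in control seedlings was also made within each pair of numbers, a step added after the values were seen. Because the split follows the ordering of the values compared, the sizes and calls within each pair were partly set by it, and they are given as a description and not as support. With replicates 3 and 4 alone, 7 of the 10 passed, against 33.4% of all genes, and with replicates 1 and 2 alone, 4 passed, against 14.6%. *EXPA11* had a log2 fold change of -3.98 with replicates 3 and 4 and -1.31 with replicates 1 and 2. The values of *EXPA3* were -2.74 with replicates 3 and 4 and -1.21 with replicates 1 and 2, those of *EXPA6* -1.89 and -0.80 in that order, and those of *EXPA10* 1.44 and 1.97. *EXPA5* had -1.74 with replicates 3 and 4 and -0.71 with replicates 1 and 2, where it did not pass (edgeR adjusted p = 0.0840, range over its alternatives 0.000652 to 0.084).

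**Figure D3:**
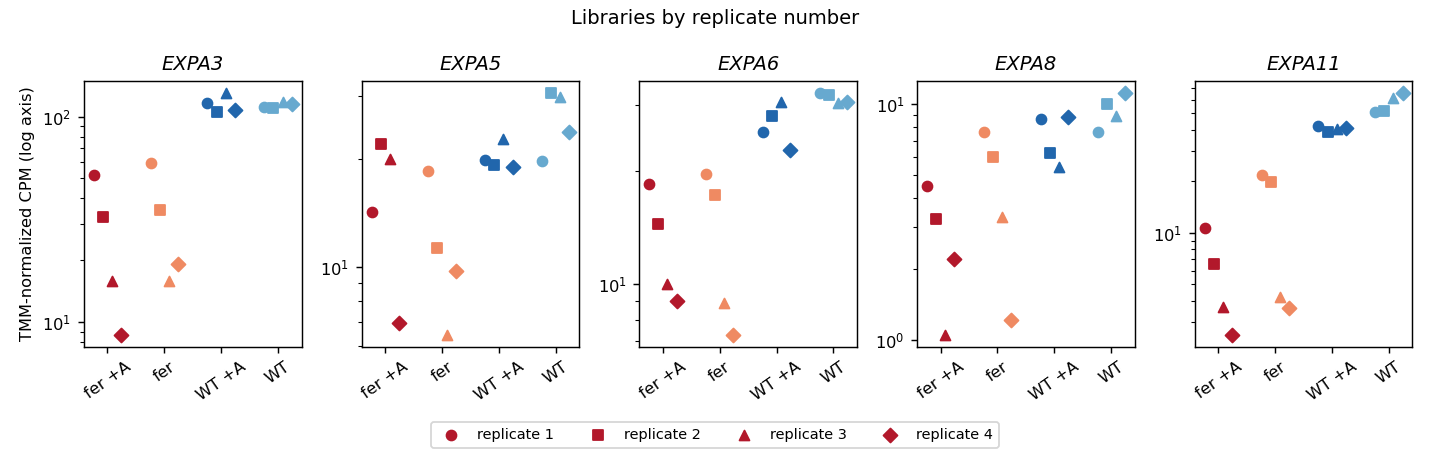
TMM-normalized CPM on a log axis of the 5 alpha-expansins that were lower in *fer* in at least 1 of the 2 comparisons, by library, with the marker shape giving the replicate number. Replicates 1 and 2 (circle, square) lie above replicates 3 and 4 (triangle, diamond) in *fer* for *EXPA3*, *EXPA6*, *EXPA8* and *EXPA11* in both treatments, and not in WT for these 4 genes except *EXPA6* in control.

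The response to arabidopside A was then taken within each genotype, to ask whether 2 h with the lipid changes alpha-expansin transcripts. In *fer* seedlings 0 of the 10 passed the test in either direction, against 0.381% of all genes, and 2 had an unadjusted p under 0.05 (*EXPA4* and *EXPA10*), against 7.89% of all genes. DESeq2 and limma-voom also called 0 of the 10. In WT seedlings 0 of the 10 passed with edgeR, against 1.97% of all genes, and 2 had an unadjusted p under 0.05 (again *EXPA4* and *EXPA10*), against 8.58%. DESeq2 called 1 (*EXPA10*) and limma-voom 0. The treated and control libraries were apart for 3 of the 10 in WT (*EXPA10* higher, *EXPA11* and *EXPA15* lower), against 10.7% of genes (7.01% higher and 3.67% lower), and for 0 of the 10 in *fer*, against 3.16%.

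*EXPA10* had the largest log2 fold change in WT, with 20.2, 18.6, 23.4 and 22.5 CPM in WT with arabidopside A and 13.2, 11.3, 10.1 and 17.8 CPM in WT control. The lowest treated library was above the highest control library by less than 1 CPM, and the log2 fold change was 0.69 (SE 0.19, interval 0.29 to 1.09, edgeR adjusted p = 0.0805, range over its alternatives 0.00562 to 0.318). *EXPA10* passed without WT control replicate 4, the highest of the controls (0.88, edgeR adjusted p = 0.0211), and without *fer* control replicate 4 (edgeR adjusted p = 0.0479). Removal of the highest control enlarges the difference, so the first of these calls is not support. In *fer* *EXPA10* had 60.0, 64.9, 55.5 and 48.0 CPM with arabidopside A and 44.1, 53.6, 43.6 and 30.7 CPM in control. Each treated library was above the control library of its number, although the groups overlapped (log2 fold change 0.41, interval 0.04 to 0.78, edgeR adjusted p = 0.568).

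*EXPA4* (AT2G39700) had 26.5, 20.8, 31.8 and 27.3 CPM in WT with arabidopside A and 42.7, 37.6, 30.8 and 42.6 CPM in WT control. Its log2 fold change was -0.53 (interval -0.96 to -0.09, edgeR adjusted p = 0.366). In *fer* it had 40.3, 37.1, 34.7 and 21.3 CPM with arabidopside A and 50.2, 59.6, 33.4 and 39.8 CPM in control, with a log2 fold change of -0.45 (interval -0.88 to -0.02, edgeR adjusted p = 0.61). The groups overlapped in both genotypes, and the intervals lay below 0 before adjustment.

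*EXPA11* had a negative value in both genotypes. In *fer* it had 10.7, 6.57, 3.68 and 2.53 CPM with arabidopside A and 21.8, 19.7, 4.22 and 3.65 CPM in control, and in WT 42.3, 39.1, 40.7 and 40.9 CPM with arabidopside A and 51.1, 51.9, 61.1 and 65.6 CPM in control. Each treated *fer* library was below the *fer* control library of its number, and in WT the groups were apart. The log2 fold change was -1.07 in *fer* (SE 0.50, interval -2.15 to 0.01, edgeR adjusted p = 0.637) and -0.50 in WT (SE 0.44, interval -1.43 to 0.44, edgeR adjusted p = 0.935). With a block that pairs the treated and control libraries of a genotype by replicate number, *EXPA11* passed in *fer* (-1.01, SE 0.21, edgeR adjusted p = 0.0254, range over its alternatives 0.0254 to 1) and 1 of the 10 genes was called, against 1.03% of all genes. The *fer* libraries also deviated together across numbers, replicate 1 with 2 and replicate 3 with 4, so that this block does not follow the number alone.

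The other 7 genes gave log2 fold changes from -0.73 (*EXPA8*) to 0.46 (*EXPA5*) in *fer* and from -0.38 (*EXPA8*) to 0.04 (*EXPA9*) in WT, each with an interval that includes 0. *EXPA1* had the narrowest intervals, -0.11 to 0.31 in *fer* and -0.20 to 0.22 in WT. *EXPA3* had some of the widest, -1.25 to 0.73 in *fer* and -0.93 to 0.96 in WT, although its treated and control WT libraries lay at 105 to 130 CPM and 110 to 117 CPM.

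The fit of 16 libraries gives each gene 1 spread for all groups, and the *fer* libraries were the more variable ones. The SD relative to the mean was larger in *fer* than in WT for 10 of the 10 genes with arabidopside A and for 9 of the 10 in control libraries, the exception being *EXPA10*. *EXPA3* showed this most plainly, with 61.7% in *fer* control and 2.96% in WT control libraries. A larger spread in *fer* was also seen over all genes. The chi-square statistic per gene between libraries of a group, which also grows with depth, was 6.43 to 75.1 in *fer* and 2.71 to 4.52 in WT. The share of all genes with the larger relative SD in *fer* was not counted. With the 8 WT libraries alone, 4 of the 10 genes passed, against 7.19% of all genes. *EXPA10* (0.68, edgeR adjusted p = 0.00562) was higher, and *EXPA11* (-0.51, edgeR adjusted p = 0.00126, range over its alternatives 0.00126 to 1), *EXPA4* (-0.53, edgeR adjusted p = 0.00841, range 0.00841 to 0.701) and *EXPA15* (-0.33, edgeR adjusted p = 0.0379, range 0.0379 to 1) were lower in treated WT seedlings. *EXPA15* (AT2G03090) had 47.7, 58.0, 56.7 and 53.3 CPM in treated and 66.3, 72.7, 61.4 and 68.2 CPM in control WT libraries. With the 8 *fer* libraries alone 0 of the 10 genes passed and 0 had an unadjusted p under 0.05. That fit called 0 of all genes as well, so the absence of calls is not particular to the 10.

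**Figure D4:**
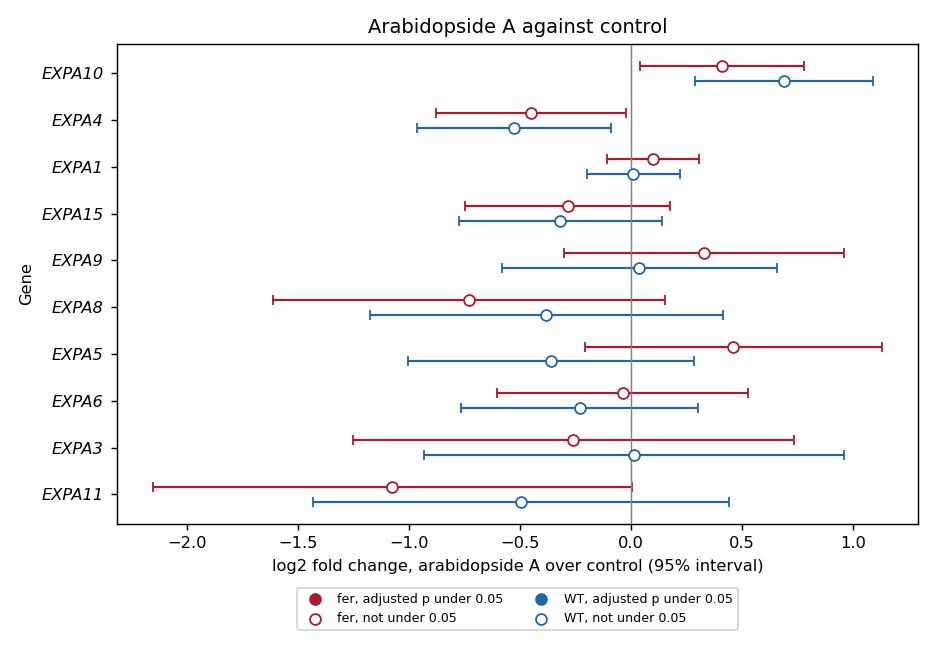
Log2 fold change of arabidopside A over control with its 95% interval for each alpha-expansin in *fer* (red, upper of each pair) and WT (blue, lower), from the fit of 16 libraries. No point is filled, since none had an edgeR adjusted p under 0.05, and only the intervals of *EXPA4* and *EXPA10* leave out 0.

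The difference of the responses, *fer* minus WT, tested whether arabidopside A acts on these transcripts to a different extent in the mutant. It passed for 0 of the 10 genes, against 0.110% of all genes, and 0 had an unadjusted p under 0.05, against 4.90% of all genes. DESeq2 and limma-voom also called 0 of the 10. *EXPA5* had the largest difference. Its log2 fold change was 0.46 in *fer* and -0.36 in WT, and the difference was 0.82 (SE 0.44, interval -0.11 to 1.75, edgeR adjusted p = 1). The differences of the other 9 ranged from -0.58 (*EXPA11*, interval -2.00 to 0.84) to 0.29 (*EXPA9*, interval -0.59 to 1.18). This is also the test of whether the *fer* against WT contrast differs between treatments, so *EXPA5*, which passed in control seedlings alone, and *EXPA8* (-0.35, interval -1.53 to 0.83), which passed under arabidopside A alone, were not shown to differ between them.

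Summed over the 10 genes, the level was 505 ± 74.4 CPM in *fer* with arabidopside A, 499 ± 74.7 in *fer* control, 574 ± 35.2 in WT with arabidopside A and 616 ± 28.3 CPM in WT control (SD, n = 4 each). The makeup of that sum differed between the genotypes more than the sum did. *EXPA1* made up 58.5% ± 7.07 of it in treated *fer*, 55.4% ± 8.47 in *fer* control, 43.1% ± 0.96 in treated WT and 39.8% ± 1.71 in WT control (SD, n = 4 each). *EXPA10* made up 11.4%, 8.68%, 3.69% and 2.11% in the same groups, and *EXPA3* 5.12%, 6.18%, 19.98% and 18.5%. *EXPA11* made up 1.11%, 2.31%, 7.12% and 9.32%. Shares of a sum depend on each other, and they are given as a description with no test.

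**Figure D5:**
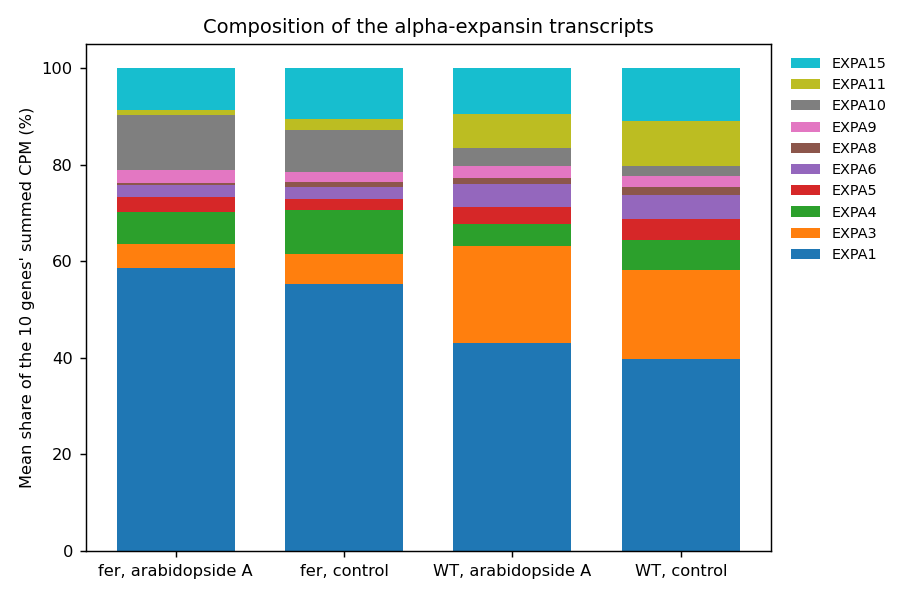
Mean share (percent, over 4 libraries) of each alpha-expansin in the summed CPM of the 10 genes, in *fer* with arabidopside A, *fer* control, WT with arabidopside A and WT control. The shares of *EXPA3* and *EXPA11* are smaller, and those of *EXPA1* and *EXPA10* larger, in both *fer* groups than in the WT groups.

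The other alpha-expansins were mostly too low to test. Of 15 further family members in the table, 10 had under 200 counts over the 16 libraries, 5 of them no count at all, and 5 were tested in control seedlings and 6 in the fit of 16 libraries. Those with no count (*EXPA22* to *EXPA26*) were not detectable at this depth, and in 4 of these 89 to 270 of the 351 50-base words near the 3′ end occur elsewhere in the genome. Of the tested ones 0 passed between *fer* and WT control seedlings, against 27.2% of all genes, with none at an unadjusted p under 0.05. Under arabidopside A only *EXPA13* (AT3G03220) passed, against 31.2% of all genes. It was lower in *fer* (log2 fold change -0.70, SE 0.21, edgeR adjusted p = 0.0174). The root hair expansins *EXPA7* and *EXPA18* were tested and did not pass in either comparison. In the beta-expansin and expansin-like families 4 of 10 genes were tested. Of these 1 was lower in control seedlings and 1 under arabidopside A, against 11.5% and 14.0% of all genes. *EXLA2* (AT4G38400), an expansin-like A gene, was lower in *fer* in control seedlings (-3.18, SE 0.40, edgeR adjusted p = 0.000309) and under arabidopside A (-2.55, SE 0.39, edgeR adjusted p = 0.000226).

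Of the 11 plasma membrane proton pump genes, which acidify the wall in which expansins act, 7 were tested. Between *fer* and WT control seedlings 1 was higher and 1 lower, against 15.7% and 11.5% of all genes. Under arabidopside A 2 were higher and 1 lower, against 17.2% and 14.0% of all genes. *AHA1* (AT2G18960), one of the most widely expressed pumps, was higher in *fer* in control seedlings (log2 fold change 0.52, SE 0.14, edgeR adjusted p = 0.0175) and under arabidopside A (0.55, SE 0.13, edgeR adjusted p = 0.00573). *AHA11* (AT5G62670) was lower in both (-1.06, SE 0.21, edgeR adjusted p = 0.00415 in control seedlings, and -1.29, SE 0.33, edgeR adjusted p = 0.00774 under arabidopside A). *AHA3* (AT5G57350) was higher under arabidopside A (log2 fold change 0.50, SE 0.17, edgeR adjusted p = 0.0318). The remaining pumps, *AHA2* among them with log2 fold changes of 0.60 in control seedlings and 0.67 under arabidopside A, did not pass in either comparison. Between arabidopside A and control, edgeR called 0 of the 7 pumps in either genotype, with 0 at an unadjusted p under 0.05, and these calls are read against 0.381% of all genes in *fer* and 1.97% in WT (7.89% and 8.58% at an unadjusted p under 0.05). It also called 0 of the 10 tested expansins outside the examined set in either genotype, and 3 of them in *fer* and 1 in WT had an unadjusted p under 0.05, against the same 7.89% and 8.58%.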

How the data were processed

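Total RNA of whole seedlings was made into 16 QuantSeq 3′ libraries, 4 for each of 4 groups. The deposited table holds counts of reads per gene without normalization, which the authors made by aligning reads to TAIR10 with STAR and counting them with HTSeq (versions not given in the sources used here, nor the strand setting; SAMtools is also named in the submitters' processing notes). Of 32833 genes, 32548 matched the TAIR10.1 annotation and 6850 had no count. Groups and replicate numbers came from the sample labels.

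Counts were scaled by TMM, filtered with edgeR's filterByExpr and tested by quasi-likelihood F tests with robust fitting (edgeR 4.0.16 in R 4.3.3), with Benjamini-Hochberg adjustment over all genes tested and a threshold of 0.05. *fer* and WT control seedlings were compared in their 8 libraries, and the other 4 comparisons came from a fit of all 16 with 1 coefficient per group. Standard errors were derived from the F statistic and intervals are 95%, unadjusted. The tests were checked on simulated counts. Simulated libraries were independent and a gene had the same spread in every group. That check therefore does not cover the larger spread of the *fer* libraries or their ordering by replicate number. Alternatives were other scalings and filters, DESeq2 1.42.0, limma-voom (limma 3.58.1), replicate blocks, other sets of libraries and leaving out each library. Depth limits genes with few counts most, and *EXPA8* had as few as 4 counts in a library.

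The members and lists were chosen with earlier results of these data known. Genes named are *FER*, the 10 alpha-expansins, genes of the lists of other expansins, proton pumps and cell type markers that passed in at least 1 comparison, and for each member the gene with the most similar profile. Other genes named, such as *AHA2*, *EXPA7* and *EXPA18*, were chosen after their values were seen. None of the 24 pairs of libraries within a group was a duplicate, since the chi-square statistic per gene was 2.71 or more in each, above sampling noise. The treated and control *fer* libraries met the criterion set for pairing, a correlation of deviations from the group means over 0.1 for the same number, in 4 of 4 pairs (0.19 to 0.61). Different numbers correlated as well within replicates 1 and 2 (0.50 and 0.49) and within replicates 3 and 4 (0.31 and 0.69), while the correlations between these sets were negative (-0.62 to -0.20), so the correlations separate replicates 1 and 2 from 3 and 4 and do not show a pairing by single number. In the other pairs of groups the means for the same number lay between -0.02 and -0.01. The labels give the numbers without saying what they stand for. Tests without a block treat the libraries of a group as independent, and the *fer* libraries, which deviated together within these sets, were not shown to be so.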

Additional observations from a re-analysis of the deposited data

Results flagged for a closer look

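Among 48 groups of 4 libraries examined for a value far from the other 3, 2 held one, and chance alone gives about 1 in 20. The *fer* arabidopside A library of replicate 2 held 26358335 counts, against 4994304 to 6860427 in the other 3 libraries of its group. In that library *EXPA1* had 324 CPM, the highest of the 16, and *EXPA10* 64.9 CPM, while *EXPA3*, *EXPA6* and *EXPA11* lay between the other *fer* arabidopside A libraries. *EXPA1* had 218 CPM in WT control replicate 3, against 251 to 257 CPM in the other 3 WT control libraries. Without that library the log2 fold change of *EXPA1* between *fer* and WT control seedlings was 0.09, against 0.14 with it, and it did not pass the test either way.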

How the results depend on the processing

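Between *fer* and WT, 5 of the 10 genes were called in control seedlings in every alternative scaling, filter and set of libraries except limma-voom (with *EXPA8*, adjusted p = 0.0472) and the splits and left-out libraries below, and leaving out each library gave 5 to 7. Under arabidopside A leaving out a library gave 5 each time, and *EXPA1* also passed with RLE size factors (edgeR adjusted p = 0.0498), with at least 10 counts in every library (edgeR adjusted p = 0.0468) and in DESeq2 (0.0197). The genes called numbered 2467 in control seedlings and 2993 under arabidopside A with replicates 1 and 2 alone, and 5912 and 5641 with replicates 3 and 4 alone, fits of the same size (4620 and 5661 with all 4). With replicates 1 and 2 alone and arabidopside A, *EXPA9* turned to 0.16 and *EXPA4* passed (0.69, edgeR adjusted p = 0.0129). With replicates 3 and 4 alone *EXPA4* turned to -0.089 under arabidopside A. Upper quartile scaling shifted all genes by a median of -0.13 (log2) between *fer* and WT control seedlings.

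For arabidopside A in WT, DESeq2 called 1 of the 10 (*EXPA10*), and the 8 WT libraries alone called 4 of the 10 and 1206 genes. Values near 0 changed sign. *EXPA1*, *EXPA3* and *EXPA9* had -0.034, -0.032 and -0.0073 with upper quartile scaling and -0.032, -0.030 and -0.0053 with library size only, and *EXPA1* and *EXPA3* had -0.015 and -0.013 with at least 10 counts in every library. For arabidopside A in *fer* the genes called numbered 45 with library size only, 182 in DESeq2 and 0 with the 8 *fer* libraries alone (804 at an unadjusted p under 0.05), and *EXPA6* had 0.032 in limma-voom. The difference of responses was called for 51 genes in DESeq2. Where no cause is named here, the cause was not tested.

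Leaving out each library in turn gave 210 (without WT control replicate 3) to 437 genes and 0 to 1 of the 10 for arabidopside A in WT. It gave 10 (without *fer* control replicate 2) to 179 genes (without *fer* control replicate 3) in *fer*, and 13 (without WT control replicate 3) to 22 genes for the difference. The log2 fold change ranged in WT from -0.041 to 0.035 for *EXPA1*, from -0.051 to 0.044 for *EXPA3* and from -0.17 to 0.15 for *EXPA9*, and in *fer* from -0.74 to 0.23 for *EXPA3* and from -0.23 to 0.23 for *EXPA6*. The difference ranged from -0.74 to 0.22 for *EXPA3*, from -0.046 to 0.24 for *EXPA4*, from -0.64 to 0.076 for *EXPA8* and from -0.19 to 0.20 for *EXPA15*. *EXPA9* between *fer* and WT under arabidopside A ranged from -0.40 to 0.044.

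With the replicate number as a block, *fer* against WT gave 5 of the 10 in control seedlings (4122 genes) and 5 under arabidopside A (5889 genes). With genotype and replicate number paired as a block, arabidopside A gave 584 genes and 1 of the 10 (*EXPA10*, 0.72, edgeR adjusted p = 0.0137) in WT, 187 genes and 1 of the 10 (*EXPA11*) in *fer*, and 53 genes and 0 of the 10 for the difference. With a replicate block shared by both genotypes *EXPA9* had -0.026 in WT. The block changed no other call of the 10 genes. In WT the libraries share only a number. Depth limits *EXPA8* most among the 10, with 4 counts in 1 library.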

Other observations

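For each of the 10 genes the tested gene with the most similar profile was found, by the root mean square difference of log2 CPM over the 16 libraries after each gene was centred on its own mean. For *EXPA3*, whose own profile deviated from its mean by 1.26 on this scale, it was AT2G10940 (0.16), and for *EXPA11*, which deviated by 1.58, it was AT5G57760 (0.24). The genes nearest to *EXPA5* and *EXPA6* were *LTP5* (0.18) and AT5G11550 (0.16), and the gene nearest to *EXPA8* was *FKBP13* (0.30). *EXPA10*, which was higher in *fer*, was nearest to AT2G42760 (0.24). *EXPA1*, the flattest of the 10 at 0.14, was nearest to AT2G43090 (0.09). *EXPA4*, *EXPA9* and *EXPA15* were nearest to *MLO10* (0.20), AT2G34590 (0.22) and *GAMMA-H2AX* (0.15). Within the 10, 3 pairs were each other's nearest, *EXPA1* and *EXPA4* (0.38), *EXPA6* and *EXPA8* (0.44) and *EXPA3* and *EXPA11* (0.48). *EXPA4* itself deviated from its mean by 0.39, so its distance to the flat *EXPA1* was about that to a flat profile. The own deviations of *EXPA6* and *EXPA8* were 0.71 and 0.92. *EXPA10*, with an own deviation of 0.86, was the farthest from any other member, at 0.77 from *EXPA1*. These values share library and depth, and they are a description.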
